A study of Mus musculus with 11 samples.

Results

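The radial migration genes described here are 9 genes, Dcx, Dclk1, Pafah1b1, Rnd2, Rnd3, Cdk5, Cdk5r1, Flna and Unc5d, chosen by name and read through every probe that the annotation of the bead array pairs with 1 of these symbols. These were 19 of the 45281 probes on the array, and all 9 symbols are current in RefSeq. RNA was measured in intermediate progenitors (IPs), basal progenitors of the developing cortex that in normal embryos express TBR2. They were sorted by their EGFP label from Tbr2 conditional knockout mouse embryos at embryonic day 13 (E13, 5 arrays) and embryonic day 16 (E16, 6 arrays). The mutants carry the Tbr2 fl/fl allele and the label comes from the Tbr2-EGFP reporter. The methods name Emx1-Cre, active in the dorsal telencephalon, for cortical Tbr2 knockouts. The driver carried by the embryos on the arrays is not stated separately. All arrays used here are labeled mutant, so each comparison below is one of stage within the mutant and none measures the effect of losing TBR2. The control arrays were not analysed here. Each array is described as a biological replicate, but the methods name fewer litters than arrays, so that some arrays share a litter. Which ones is not known here, arrays are treated as independent throughout, and the p-values are therefore too small to an unknown degree.

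New excitatory neurons of the cortex leave the germinal zone, pass through a multipolar stage, take on a bipolar shape and climb along radial glial fibers. Microtubule proteins such as doublecortin and LIS1 couple the nucleus to the leading process, other proteins set the shape of the actin skeleton, and the kinase CDK5 with its activator p35 phosphorylates many proteins of both systems. Loss of several of these genes disturbs cortical layering in mouse, and mutations of DCX, PAFAH1B1 and FLNA cause lissencephaly or heterotopia in human.

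A probe's signal is the brightness of its beads in arbitrary units after background subtraction, and at a detection p under 0.05 the arrays detected 19757 to 20854 probes each. A probe was tested where it was detected on all 11 arrays, which held for 16411 probes and for 12 of the 19 radial migration probes, from 8 of the 9 genes. Limma compared the stages on the log2 scale after quantile normalization of the tested probes, and calls required more than a 1.5-fold change with an adjusted p below 0.05, the methods' thresholds (SE stands for the standard error of a log2 change). The defining IP genes Eomes, Neurog2 and Insm1 were detected on every array, with median signals of 2585, 3723 and 9592 at E13 and 2094, 2604 and 8528 at E16. The defining neuron genes Tubb3, Neurod6 and Tbr1 were also detected on every array. Their median signals were 65.6, 99.8 and 2053 at E13 and 58.1, 200 and 2523 at E16. Eomes is the gene of TBR2 itself, the gene targeted in these mutants, so its signal cannot serve as an ordinary marker here. What its probe still reads after the deletion was not tested. Single arrays stood apart. Erythroid genes summed to 26583 on E13 array 64 against at most 511 on the other E13 arrays, and interneuron genes to 5133 against at most 1153. At E16 array 97 stood out in the same lists to a lesser degree, with an erythroid sum of 7772 against at most 2166 and an interneuron sum of 1408 against at most 755 on the other E16 arrays. The summed Cajal-Retzius genes were lowest within their stage on E13 array 40 (11143) and on E16 array 80 (2870). Xist was detected by all 4 of its probes on 2 of 5 E13 and 5 of 6 E16 arrays, so that the share of female embryos may differ between the stages, and Dcx and Flna lie on the X chromosome.

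Of the 12 tested radial migration probes, 1 was called, that of Rnd3, which was lower at E16 (8 probes had a positive and 4 a negative change of any size). Among all tested probes 11.3% were called, so the share of these probes that was called lies near the background. By direction the background was 5.17% higher and 6.09% lower, beside 0 and 1 of these probes. A further 4 probes passed the adjusted p but not the fold. These were both tested probes of Dcx and 1 of Cdk5r1, higher at E16, and 1 of Dclk1, lower at E16. In all 5 of the 12 probes had an adjusted p under 0.05, against a background of 17.9%, with 3 higher (background 8.52%) and 2 lower (background 9.41%). The probes are not independent, since Dcx, Dclk1, Pafah1b1 and Cdk5r1 each have more than 1. The median log2 change was 0.09 over the 12 probes and 0.01 over all tested probes, and the median absolute change 0.26 and 0.22. In the plot of stage changes, Rnd3 lies alone beyond the 1.5-fold line at the lower end.

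**Figure D1:**
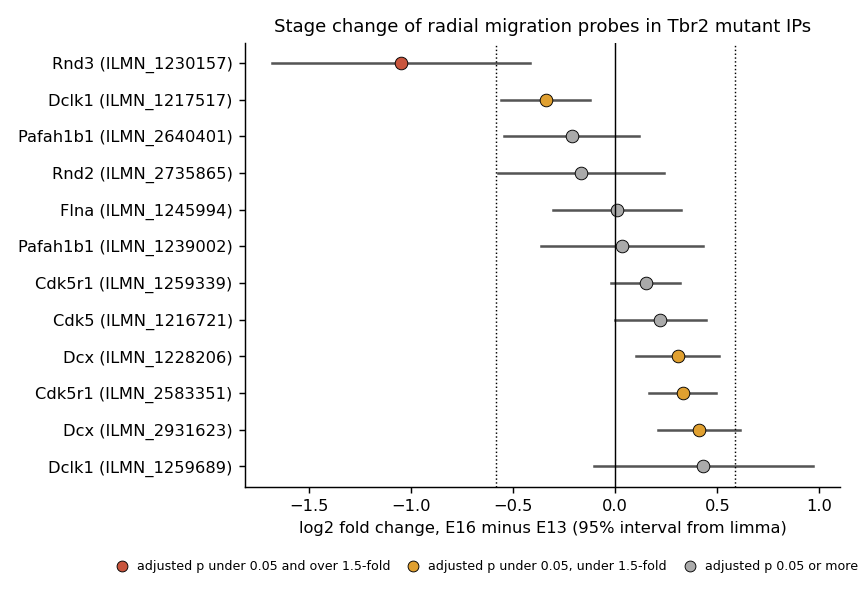
Log2 fold change from E13 (5 arrays) to E16 (6 arrays) for the 12 tested radial migration probes in Tbr2 mutant IPs, with 95% intervals from limma. Dotted lines mark a 1.5-fold change, and the Rnd3 probe, at -1.05, is the only point beyond them.

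Rnd3 and Rnd2 encode related proteins that are needed by migrating cortical neurons in mouse, Rnd2 at the multipolar stage and Rnd3 during later movement. Rnd3 is also expressed by progenitors. As the sequence upstream of the called gene, the RefSeq promoter of Rnd3 is shown (GRCm38.p6, minus strand, chr2:51149062-51149361, 250 bases before to 50 after the start), with every match of the motifs searched in capitals.
Rnd3 promoter: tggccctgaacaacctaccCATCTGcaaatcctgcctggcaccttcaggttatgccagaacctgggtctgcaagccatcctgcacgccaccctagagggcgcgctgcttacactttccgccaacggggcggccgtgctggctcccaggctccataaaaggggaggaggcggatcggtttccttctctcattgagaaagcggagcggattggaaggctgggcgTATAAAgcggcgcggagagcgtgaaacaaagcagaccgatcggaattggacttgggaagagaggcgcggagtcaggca
The motifs were the E-box CANNTG, which bHLH factors bind, its form CAGATG, its form CAGCTG, the T-box motif AGGTGTGA and the TATA motif TATAAA, each on both strands. The Rnd3 window held 1 E-box, of the CAGATG form read on the other strand, at position -231 from the start, and 1 TATA motif at position -28, and no match to CAGCTG or to AGGTGTGA. Of the 32851 mouse promoter windows of this length, 72.3% held CANNTG, 17.2% CAGATG, 16.3% CAGCTG, 1.28% AGGTGTGA and 13.6% TATAAA. These matches describe letters and not bound sites.

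The normalized signal of Rnd3 (ILMN_1230157) was 2158, 1425, 1865, 1719 and 1826 on E13 arrays 37, 40, 61, 64 and 65. At E16 it ran from 425 to 1938 with a median of 799. Array 40 was thus the dimmest of E13, and 5 of the 6 E16 arrays lay below all E13 arrays, while E16 array 97 lay within the E13 range. The E13 mean was 1799 ± 265 (SD, n = 5), and that of E16 was 972 ± 544 (SD, n = 6). Rnd3 was 2.07-fold lower at E16, with a log2 change of -1.05 (SE 0.294, limma adjusted p = 0.0242). Over all 462 ways to split the arrays, the exact permutation p (two-sided, not adjusted for the 12 tested probes) was 0.0216.

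The E16 arrays differed widely in Rnd3. Their SD of 0.76 on the log2 scale was larger than that of 97% of tested probes, whereas the E13 SD of 0.22 was larger than that of 46.4%. The lowest E16 signal was on array 80 and the next on array 91 (649), followed by 95 (703), 11 (896) and 15 (1223). The Cajal-Retzius marker list, detected with 5 of its 9 genes on all arrays, had its lowest sum of each stage on the array that was dimmest for Rnd3, and its highest E16 sum (9383) on array 97. The E13 sums (11143 to 27474) did not overlap the E16 sums (2870 to 9383), and the defining gene Trp73 was detected on 3 E13 arrays and no E16 array. The radial glial list summed to between 4548 and 8068 at E13 and between 4143 and 5923 at E16. Other lists shared parts of this order. Interneuron and meningeal genes also had their lowest sums of each stage on arrays 40 and 80, and array 97 had the highest E16 sums of interneuron (1408), erythroid (7772), meningeal (487) and, by little, microglial genes (92.5 against 92.1 on the next array). The IP marker list summed to between 38602 and 49590 at E13 and between 25840 and 40783 at E16. Array 80 had the lowest E16 sum of the IP list and of the radial glial list, while E13 array 65 was lowest at E13 for both. The part of any of these cells in the lower Rnd3 signal at E16 was not tested. In RNA from bulk sorted cells, fewer cells that express a gene and less of its RNA per cell cannot be told apart.

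The call of Rnd3 depended on single arrays and on the test. It was lost without E13 array 37 (log2 change -0.97, limma adjusted p = 0.0642), without E13 array 61 (-1.03, adjusted p = 0.0528) and without E16 array 91 (-0.96, adjusted p = 0.0527), and held without each of the others, lowest without E16 array 97 (log2 change -1.28, limma adjusted p = 0.00197). Without E13 array 40 and E16 array 80 together the log2 change was -0.92 (limma adjusted p = 0.0356). The call was also lost with detection of Xist as a term (limma adjusted p = 0.0616), with no detection filter (0.148) and with an unmoderated test of stage (0.0803), while the log2 change stayed at -1.05 in each of these settings. The direction was the same in all 22 other settings.

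**Figure D2:**
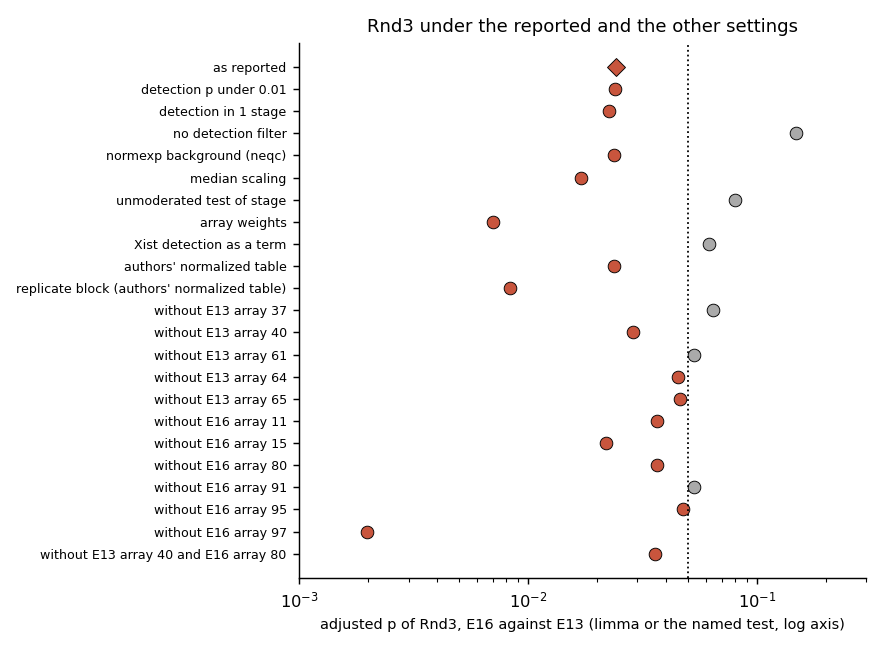
Adjusted p of Rnd3 for E16 against E13 (log axis, dotted line at 0.05) as reported and in 22 other settings, including each array left out. Red points pass and gray points miss the threshold. The 6 gray points are no detection filter, the unmoderated test, the Xist term and the fits without E13 arrays 37 and 61 and E16 array 91.

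Rnd2 (ILMN_2735865) was bright at both stages, with a level above 96.3% of tested probes. Its normalized signal was 5841, 6721, 6643, 5060 and 4125 on E13 arrays 37, 40, 61, 64 and 65, and ran from 3467 to 7817 with a median of 4690 at E16. As for Rnd3, the highest E16 value was on array 97 and the lowest on array 80, and the stages overlapped widely. The log2 change was -0.17 with a 95% interval from -0.57 to 0.24 (limma adjusted p = 0.589).

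The difference between both genes was compared within arrays, which removes whatever an array adds to both. Rnd2 minus Rnd3 averaged 1.65 ± 0.41 (SD, n = 5) in log2 signal on E13 arrays, against 2.53 ± 0.58 (SD, n = 6) on E16 arrays, a change of 0.88 (95% interval 0.18 to 1.58). The two-sided exact permutation test gave p = 0.0260, or 0.0390 after Benjamini-Hochberg adjustment over the 3 related pairs compared. This test reuses the Rnd3 signals given above, so it is no independent support for the change of Rnd3. The pairs were chosen with earlier results of these data known, and the adjustment does not cover that choice. The difference was above all E13 arrays on 4 of 6 E16 arrays, not on array 15 or array 97. It was no longer past 0.05 without E13 array 37 (exact p = 0.0667) or without E13 array 65 (exact p = 0.0571).

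The genes whose pattern over the 11 arrays lay closest to Rnd3 were Col16a1, Zfp521 and Prox1. The root-mean-square difference of their centered log2 signals from those of Rnd3 was 0.28, 0.32 and 0.34, against a median of 0.79 over 8959 genes. Their log2 changes were -1.20, -1.09 and -1.09, with adjusted p from limma of 0.0135, 0.0301 and 0.0293. Since they were picked for their likeness to a called gene, these values are a description. Col16a1 lost its call in 1, Zfp521 in 8 and Prox1 in 9 of 23 other settings.

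Doublecortin (Dcx) binds and stabilizes microtubules in migrating neurons, and Dclk1 encodes a doublecortin-like protein that also carries a kinase domain. The Dcx probes were higher and the brightest Dclk1 probe lower at E16, with a second Dclk1 probe leaning the other way. The Dcx probe ILMN_2931623 had normalized signals of 3113, 3929, 4369, 3705 and 4338 on E13 arrays 37, 40, 61, 64 and 65 and of 4574 to 5497, median 5298, at E16. Every E16 array lay above every E13 array. The stages did not overlap on 2 of the 12 probes, against 11.7% of all tested probes, counted in either direction. The log2 change was 0.41 (SE 0.0941, limma adjusted p = 0.00802), a 1.33-fold difference that missed the fold threshold.

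A second Dcx probe (ILMN_1228206) had 4631, 5649, 5877, 5071 and 6971 on the same E13 arrays and 6272 to 7243, median 6962, at E16. Here E13 array 65 reached into the E16 range, and the E16 arrays were tightly grouped, with an SD of 0.08 on the log2 scale that was larger than that of 1.58% of tested probes. The log2 change was 0.31 (SE 0.0948, limma adjusted p = 0.0383). With median scaling in place of quantile normalization both Dcx probes missed the adjusted p (0.0816 and 0.251 from limma), with log2 changes of 0.30 and 0.20. The adjusted p of ILMN_1228206 was under 0.05 in 7 of 22 other settings, that of ILMN_2931623 in 21. With 1 array left out, ILMN_1228206 kept an adjusted p under 0.05 without E13 array 65 or E16 array 95 and lost it without each of the other arrays (0.0561 to 0.101).

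Of the remaining Dcx probes, ILMN_1256251 was detected on no array. ILMN_1251963 lay near background, detected on 3 of 5 E13 arrays and on all 6 E16 arrays, with signals before normalization of 8.98, 21.0, 17.6, -0.926 and 21.3 at E13 and of 18.6 to 96.8 at E16. It was highest on E16 array 97. Since it met a detection rule through E16 alone, where it is brighter, no fold or test is given for it.

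The list of newborn excitatory neuron markers had 2 of 13 tested genes higher and 0 lower at E16 by limma. Among all genes tested on their brightest probe, 12.3% were called in either direction, so this share lies near the background. The median log2 change of the list was -0.05. Its summed signal, which the brightest genes dominate, ran between 67477 and 89793 on E13 arrays and between 52141 and 77227 on E16 arrays. The part of neuronal cells in the higher Dcx signal was not tested.

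Dclk1 has a pair of RefSeq start sites, and both are shown because its tested probes differed in direction (GRCm38.p6, plus strand, chr3:55242114-55242413 and chr3:55461478-55461777, capitals as for Rnd3).
Dclk1 upstream start: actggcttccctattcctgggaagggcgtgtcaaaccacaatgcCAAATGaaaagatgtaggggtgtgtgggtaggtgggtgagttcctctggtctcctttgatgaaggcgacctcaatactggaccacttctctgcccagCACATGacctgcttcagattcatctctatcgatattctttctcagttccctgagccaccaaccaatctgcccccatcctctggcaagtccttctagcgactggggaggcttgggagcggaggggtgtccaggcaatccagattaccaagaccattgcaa
Dclk1 downstream start: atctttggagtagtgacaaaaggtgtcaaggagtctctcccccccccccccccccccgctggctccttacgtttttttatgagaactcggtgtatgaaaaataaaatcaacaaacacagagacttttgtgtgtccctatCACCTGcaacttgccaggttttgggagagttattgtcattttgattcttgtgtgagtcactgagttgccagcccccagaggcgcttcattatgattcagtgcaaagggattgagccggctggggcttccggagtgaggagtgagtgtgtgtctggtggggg
The upstream window held 2 E-boxes and the downstream window 1, and neither held a match to the other motifs. Which start the transcript under each probe uses is not known here. Of the 9 genes, 5 (Rnd3, Dclk1, Pafah1b1, Flna and Dcx) matched the RefSeq promoter table.

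The brightest Dclk1 probe (ILMN_1217517, annotated to NM_019978) had normalized signals of 1126, 1326, 1287, 1227 and 1373 on E13 arrays 37, 40, 61, 64 and 65 and of 796 to 1141, median 1044, at E16. Of the 6 E16 arrays 5 lay below all E13 arrays, and array 15 lay just above E13 array 37. The log2 change was -0.34 (SE 0.102, limma adjusted p = 0.0333), below the fold threshold. The adjusted p was under 0.05 in 13 of 22 other settings and reached 0.0943 with the replicate block. It was 0.0688 with no detection filter, 0.0632 with detection of Xist as a term, 0.0909 without E13 array 40 and E16 array 80 and, among fits without 1 array, 0.0697 without E13 array 40, 0.0741 without E13 array 61, 0.0527 without E13 array 64, 0.0762 without E13 array 65 and 0.0660 without E16 array 91 (all from limma).

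The dimmer Dclk1 probe (ILMN_1259689), annotated to a different transcript record, leaned the other way. It had 194, 333, 239, 203 and 438 at E13 and 270 to 647, median 343, at E16, with a log2 change of 0.43 and a 95% interval from -0.11 to 0.97 (limma adjusted p = 0.259). E16 array 11 was highest and E13 array 65 next, and the log2 change was 0.26 without the former and 0.61 without the latter. The within-array difference of the dim minus the bright probe rose by 0.77 in log2 signal from E13 to E16 (95% interval 0.23 to 1.32, two-sided exact permutation p = 0.0130), a comparison chosen after the values were seen. In 15 other settings the rise was between 0.62 and 0.92, with an exact p of at most 0.0476. The remaining probe, ILMN_2434274, was detected on 1 array.

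Set against each other within arrays, the brightest probes of Dcx and Dclk1 separated the stages without overlap. Dcx minus Dclk1 on these probes averaged 2.14 ± 0.13 (SD, n = 5) on E13 arrays, against 2.79 ± 0.14 (SD, n = 6) on E16 arrays. The change of 0.65 had a 95% interval from 0.46 to 0.83. The two-sided exact permutation p of 0.00433 is the smallest that 462 splits can give (0.0130 after Benjamini-Hochberg over the 3 pairs). It reuses the signals of the single probes given above, so it is no independent support for their changes. The change was between 0.58 and 0.70 in 15 other settings with the same probes and passed the exact test in each. With the dimmer Dclk1 probe in place of the bright one, a choice made after the values were seen, the stages overlapped and the change was -0.13 (95% interval -0.67 to 0.42, two-sided exact permutation p = 0.688), so the separation rests on the bright Dclk1 probe. With the other Dcx probe it was 0.75 (exact permutation p = 0.00433). In the plot of within-array differences all 6 E16 points of this pair lie above all 5 E13 points.

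**Figure D3:**
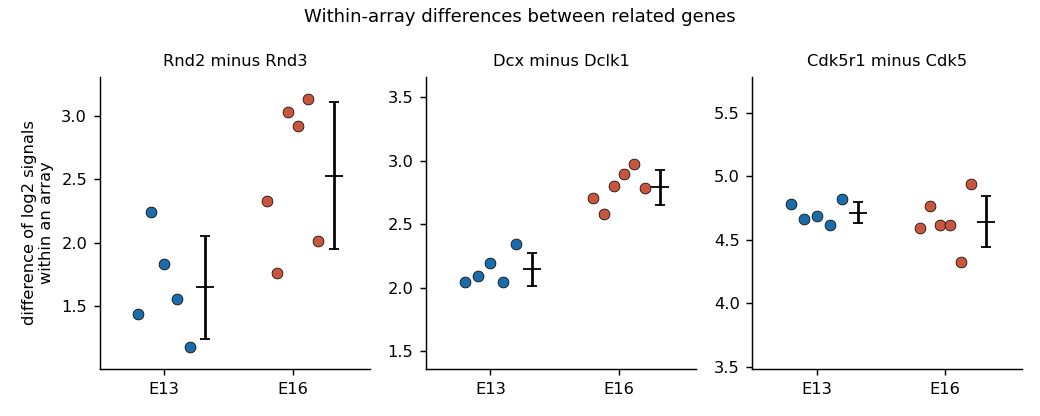
Within-array difference of log2 normalized signal between related genes at E13 (blue, 5 arrays) and E16 (red, 6 arrays), with the mean and SD beside the points. The Dcx minus Dclk1 values of E16 (2.58 to 2.98) lie above those of E13 (2.04 to 2.34), Rnd2 minus Rnd3 overlaps in part, and for Cdk5r1 minus Cdk5 the E13 values lie within the range of E16.

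CDK5 is a kinase active in postmitotic neurons and p35, encoded by Cdk5r1, is its main activator there. The Cdk5r1 probe ILMN_2583351 had normalized signals of 5700, 5576, 5969, 6412 and 6283 on E13 arrays 37, 40, 61, 64 and 65 and of 6455 to 8365, median 7621, at E16. All E16 arrays lay above all E13 arrays, though array 15 did so by little. The log2 change was 0.33 (SE 0.0774, limma adjusted p = 0.00924), a 1.26-fold difference under the fold threshold. Its adjusted p was under 0.05 in 21 of 22 other settings and 0.109 with median scaling.

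The brightest Cdk5r1 probe (ILMN_1259339) is annotated to a different transcript record than ILMN_2583351. Its level was above 99.4% of tested probes. It had 14375, 16941, 17059, 16583 and 16732 at E13 and 15187 to 20240, median 18267, at E16. The log2 change was 0.15 with a 95% interval from -0.02 to 0.32 (limma adjusted p = 0.214). E13 array 37 lay apart below its stage and E16 array 95 was the lowest of E16. The remaining Cdk5r1 probe (ILMN_1251787) was detected nowhere.

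Cdk5 itself (ILMN_1216721) had 523, 669, 662, 676 and 591 at E13 and 633 to 824, median 735, at E16. On 5 of the 6 E16 arrays it lay above all E13 arrays, array 97 being the exception. The log2 change of 0.22, with a 95% interval from -0.0031 to 0.45, did not pass limma's test over all probes (adjusted p = 0.165). The exact permutation test of this probe alone gave p = 0.0303. That value is not adjusted for the 12 tested probes, on each of which the test was run. Cdk5r1 minus Cdk5 changed by -0.07 in log2 signal (95% interval -0.29 to 0.15, two-sided exact permutation p = 0.519), so that an unequal change of up to these bounds is not excluded. With the other tested Cdk5r1 probe the change was 0.11 (95% interval -0.14 to 0.36, two-sided exact permutation p = 0.372).

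Pafah1b1 encodes LIS1, a regulator of the dynein motor that pulls the nucleus forward, and Flna encodes filamin A, which crosslinks actin filaments. Neither passed the test. The Pafah1b1 probe ILMN_2640401 had normalized signals of 663 to 822 at E13 and 456 to 872 at E16, with a log2 change of -0.21 (95% interval -0.54 to 0.12, limma adjusted p = 0.375). ILMN_1239002 had 182 to 256 and 163 to 357, with a log2 change of 0.03 (95% interval -0.36 to 0.43). The E16 arrays spread more widely than the E13 arrays on both probes, and the highest was array 95 on the former and array 97 on the latter. Its other probe was detected on no array. Flna (ILMN_1245994) had 480 to 713 at E13 and 417 to 746 at E16, with a log2 change of 0.01 and a 95% interval from -0.31 to 0.32. Its highest E13 value was on array 64, the array with blood and vessel genes, where endothelial and pericyte genes summed to 1342 against at most 364 on the other E13 arrays. A second Flna probe was detected nowhere.

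Unc5d, a receptor of netrins and FLRT proteins that marks multipolar cells of the subventricular zone in mouse, has 1 probe on the array (ILMN_2819736), and it was detected on no array. Its signals before normalization were -11.2, -7.99, -14.2, -8.14 and -12.1 at E13 and -8.38 to 2.65 at E16. They were not well above background at either stage, so no fold is given, and a single silent probe does not show that the gene was off.

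**Figure D4:**
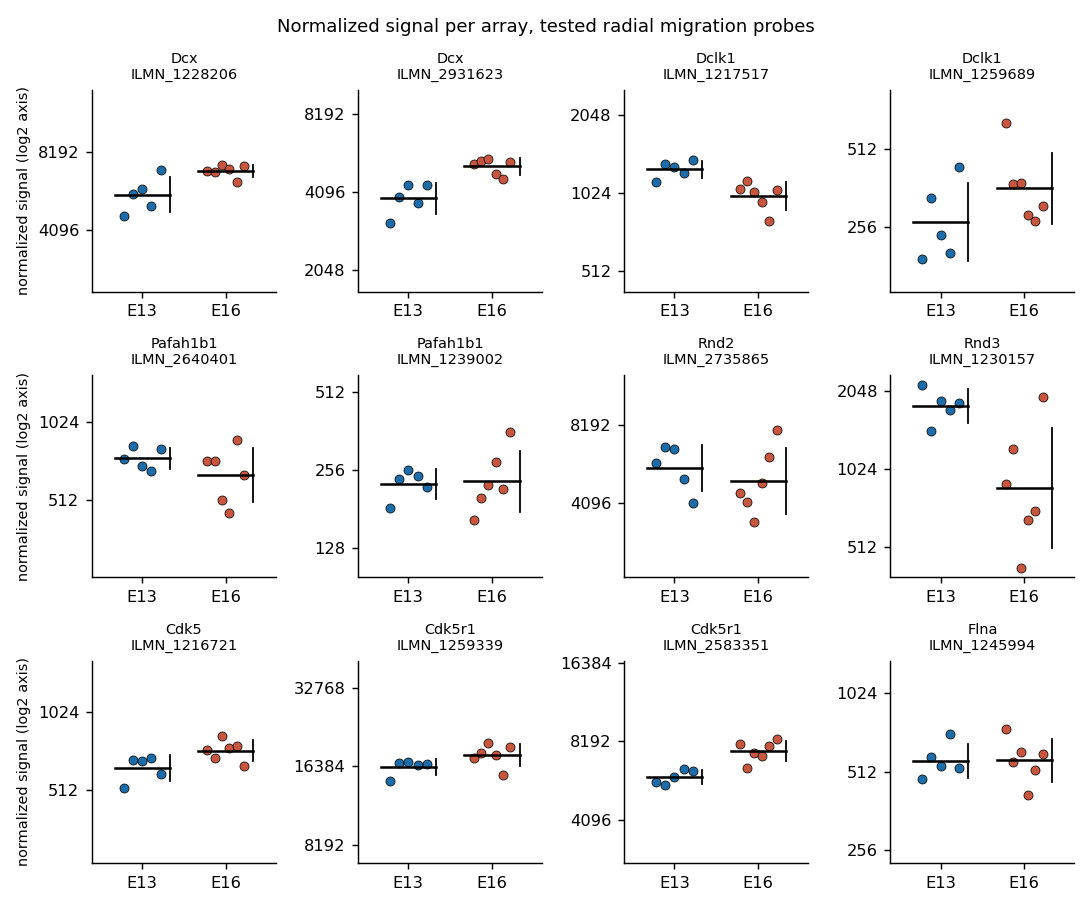
Normalized signal of the 12 tested radial migration probes on each array (log2 axes that differ in level) at E13 (blue, n = 5) and E16 (red, n = 6), with the mean of log2 values and its SD. Rnd3 shows 5 of 6 E16 arrays below E13 and 1, array 97, near 1938 within it, while both Dcx probes and Cdk5r1 ILMN_2583351 sit higher at E16 by less than 1.5-fold.

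Around these genes, 9 lists of partners in radial migration held 155 genes, of which 117 had a tested probe. On the brightest probe of each gene, 13 were higher and 9 lower at E16, or 18.8%, against 12.3% of all 8967 genes tested this way. Among 17 genes of the lissencephaly and dynein group 1 was higher and 1 lower. Dync1i1, an intermediate chain of dynein, had a log2 change of 1.69 (limma adjusted p = 0.000357), with signals of 47.0 to 88.0 at E13 and 125 to 334 at E16. Nde1, a LIS1 partner needed in progenitors, had one of -1.17 (limma adjusted p = 4.7e-05), with 1172 to 1554 at E13 and 459 to 745 at E16. The share of this group that was called lies near that of all genes. LIS1's own probes did not pass. The stages did not overlap for Dync1i1 or Nde1, against 11.7% of all tested probes without overlap. Both were named because they were called, a choice that favors separated stages.

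Of 18 genes of neuronal microtubules 1 was called, Map6, which encodes a microtubule-stabilizing protein, whose E16 signal differed by -0.63 in log2 units (limma adjusted p = 0.00185). Its change fell under the fold threshold without E13 array 65 (-0.56) and with the Xist term (-0.55). None of 14 genes of polarity and the multipolar to bipolar transition was called by limma, with 1 at an unadjusted p under 0.05 and 0 by the unmoderated test.

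Of 13 CDK5 partners and substrates 2 were higher and 1 lower. Ppp1r9a, which encodes the actin-binding neurabin, had a log2 change of 0.68 (limma adjusted p = 0.000853) and the adhesion gene Nfasc one of 0.70 (adjusted p = 0.0247), although 6 of 23 other settings did not call it (adjusted p up to 0.101). Lower was the intermediate filament gene Nes at -0.71, under the fold threshold without E13 array 64 (-0.55). Among 6 filamins and filamin partners Vim, another intermediate filament gene, was lower at -1.77 (limma adjusted p = 3.3e-05). Nes and Vim also belong to the radial glial marker list. Of its 11 tested genes 2 were called higher and 2 lower at E16 by limma, and 7 were not called.

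Of 13 netrin receptors and FLRT ligands 3 were higher and 2 lower. Flrt1, a member of the FLRT family whose proteins bind UNC5 receptors, had a log2 change of 0.84 (limma adjusted p = 0.00338) and Dscam, a receptor for netrin, one of 0.75 (adjusted p = 0.00156). The glypican gene Gpc3 was lower at -1.02, not called in 2 of 23 other settings, and Unc5b, a relative of Unc5d, at -0.68 (limma adjusted p = 0.0322), although 13 of 23 other settings did not call it (adjusted p up to 0.102).

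Of 8 reelin pathway genes, which guide where migration ends, 2 were higher and 1 lower. The receptor gene Lrp8 had a log2 change of 0.75 (0.58 without E13 array 64, under the fold threshold) and the adaptor gene Dab1 one of 0.73, with adjusted p from limma of 0.00739 and 0.00577. Reln, the ligand made by Cajal-Retzius cells, was lower at -2.35 (limma adjusted p = 0.000100), with 3168 to 6940 at E13 and 547 to 1870 at E16. Reln also belongs to the Cajal-Retzius list, whose sums are given beside Rnd3.

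Among 16 transcription factors of migrating neurons 5 were higher and 2 lower. The upper layer gene Cux2 had a log2 change of 1.53 (limma adjusted p = 5.6e-05) and the POU factor gene Pou3f3 one of 1.12 (adjusted p = 0.00213). Nr2f2, the nuclear receptor COUP-TFII, was lower at -1.22 (adjusted p = 0.00116) and the proneural gene Neurog1 at -1.17 (adjusted p = 0.00190). None of these 4 genes had overlapping stages, and each kept its call in every other setting in which it was tested. For Neurog1 these were 21 of 23 settings, and its signals were low, 66.6 to 136 at E13 and 31.4 to 59.5 at E16. The 4 genes were picked as the called genes with the largest changes, a choice that favors both traits.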

How the data were processed

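The authors deposited background-subtracted bead signal intensities that were not normalized between arrays, along with detection p-values, and a table of log2 values quantile-normalized after removal of outlier probes. The log base of that table was checked against the intensities (slope of probe means 0.999 over 15825 shared probes). A deposited control table of 22 value columns belongs to no sample listed here and was not used, so the methods' 2-way ANOVA could not be repeated.

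Stages were read from sample labels and column names. Probes took the platform annotation's symbol (34885 of 45281 have 1). For probes detected on all 11 arrays, limma 3.58.1 (R 4.3.3) fitted log2 quantile-normalized signals with a mean-variance trend and Benjamini-Hochberg adjustment over all tested probes. Exact permutation tests were run in Python 3.11.15. Scripts were tested on simulated data. Marker sums used the brightest probe of a gene, scaled to a common array median, with values under 0 set to 0. Members, lists and tests were chosen with earlier results of these data known. Named genes were all probes of the 9 genes, and the 3 genes nearest to a called member. Of each partner list, up to 2 called genes each way with the largest change were named. Alternatives were other detection rules, normexp background, median scaling, the authors' table, an unmoderated test, no fold threshold, array weights, Xist detection as a term, a replicate block, arrays left out and, added after the data were seen, the other tested probe of a gene. The number of arrays limits the precision. The result of 1 partner list is not reported here, though its genes are in the total over the lists.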

Additional observations from a re-analysis of the deposited data

Results flagged for a closer look

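On the Cdk5r1 probe ILMN_1259339, E13 array 37 stood apart below its stage with a normalized signal of 14375, against 16583 to 17059 on the other E13 arrays. The gap took 0.835 of the range of the stage. This was 1 of 24 groups of arrays examined in this way, and chance alone would mark about 1.2 of 24.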

How the results depend on the processing

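Against 1848 probes called as reported, 2943 were called with no fold threshold, and between 1515 and 1872 with 1 array left out. Of the radial migration probes 2 were called with detection in 1 stage. The added probe, Dcx ILMN_1251963, entered through E16, the stage in which it is brighter. That way of entry favors a call, so the count of 2 is no evidence that this probe changed. There were 5 calls with no fold threshold and 0 in each of 3 settings, the unmoderated test, no detection filter and Xist detection as a term, while 0 to 1 were called with 1 array left out. The within-array change of Rnd2 minus Rnd3 was 0.76 to 1.03 with 1 array left out. With the other tested probe of a gene, a choice made after the values were seen, Dcx minus Dclk1 changed by -0.13 (other Dclk1 probe) and Cdk5r1 minus Cdk5 by 0.11, both with the sign turned. Small changes that did not pass the test changed sign: Pafah1b1 ILMN_1239002 was -0.0011 with array weights, -0.093 with the replicate block and -0.094 to 0.13 with 1 array left out. Flna was -0.0098 with array weights, -0.17 with Xist detection as a term, -0.0094 with the replicate block, -0.00022 without E13 array 40 and E16 array 80 and -0.072 to 0.095 with 1 array left out, and Rnd2 was 0.0041 without arrays 40 and 80. The labels' replicate numbers did not pair the samples, since the deviations of equal numbers correlated at -0.25 to 0.17 and 1 of 5 E13 samples correlated best with its own number. With the replicate block on the authors' normalized values, 1507 probes were called, and the log2 fold change of Rnd3 was -1.28 (adjusted p = 0.00833 from limma). Which array carries which number is not known here.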
